A study of Drosophila melanogaster with 4 samples.

Results

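Long non-coding RNA (lncRNA) genes were the class examined among the genes that carried binding peaks of the homeodomain transcription factor Prospero in the larval fly brain. The members were the entries of the authors' deposited table of Prospero peak genes that have a FlyBase gene identifier and a symbol starting with lncRNA:. There were 337 such entries with 336 different symbols, among 1510 gene identifiers in the whole table. The members were thus chosen by the measured value itself, a Prospero peak assigned to the gene by the authors, so their presence is a description and was not tested. On the chromosome arms 334 of 1946 annotated genes with a lncRNA symbol were members (17.2%), and 7.77% of protein-coding genes were in the table. The table names 1 further gene with a lncRNA symbol today, CR43337, but under the symbol CG43337. It is therefore no member and counts with the other lncRNA genes in the shares below. Where listed genes of all kinds are joined or mapped, it counts as listed.

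A lncRNA gene is transcribed into an RNA that is longer than the small regulatory RNAs and is not read into a protein. In flies most such genes are known only by an annotation number after the letters CR, and a few have a known role, among them the RNAs of dosage compensation and cherub, an RNA that is handed unequally to the daughters of neural stem cells. Prospero is carried into the smaller daughter of a dividing neural stem cell (neuroblast), where it represses stem cell genes and turns on genes of differentiation. A binding peak beside a lncRNA gene can belong to that gene, to a neighbour, or to an enhancer shared by several genes.

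Binding was mapped by targeted DamID in brains dissected from Drosophila melanogaster larvae of the 3rd instar. The assay fuses a bacterial methylase (Dam) to a chromatin protein, so that GATC sequences near the places where that protein sits become marked, and the marked fragments are sequenced. The design had 4 groups with 3 biological replicates each: Dam joined to full-length Prospero, Dam joined to a Prospero form called ΔN7, Dam joined to HP1a, a protein of heterochromatin, and unfused Dam as background. In every group GMR71C09-GAL4 with temperature-sensitive Gal80 drove expression, so the driver sets which cells make the Dam proteins. DNA was taken from whole brains, and the title of the study speaks of precursors and neurons. The values are names in 1 list with no peak height, position or replicate, so depth is unknown and there is no spread between brains to set a difference against. Which Prospero form gave the list is not stated in the labels. All lengths and distances below are properties of genes in the RefSeq annotation of genome Release 6. The labels do not name the build that the authors used.

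Of the 336 symbols, 335 were placed on the chromosome arms through that annotation. The symbol lncRNA:CR45557 (FBgn0267117) had no match. The symbol lncRNA:CR33218 stands in 2 rows, and in 1 of them the authors' own name and identifier are those of the protein-coding gene CG2854 (FBgn0040391), so that row was counted as CG2854. Among the 335 placed genes, 334 have a lncRNA symbol today and 1, CR45270 (FBgn0266808), is now annotated as an antisense RNA. The table itself gave names other than a CR number to 3 members (cherub, acal and sphinx), and 2 more have names today: CR43432 is marge and CR43653 is Irar.

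The share of 17.2% of lncRNA genes has an exact 95% interval of 15.5 to 18.9. By the same count 7.77% of 13946 protein-coding genes were in the table (7.33 to 8.22) and 5.77% of 503 antisense RNA genes (3.89 to 8.18). These shares carry no test here. The intervals treat genes as independent and cover counting error only, and neighbouring genes can be listed for 1 shared peak.

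The best known member was cherub (FBgn0262972, arm 3R, 8493 bp), which accumulates in brain tumours that arise from neuroblasts and helps to keep them proliferating. It overlapped no protein-coding gene. Its nearest one, CG5214, lay 769 bp away and was in the table, as was the next, CG17734, at 3632 bp, while scpr-A at 5511 bp and scpr-B at 6640 bp were not. On the other side the next gene was another member, CR31386, which starts 13292 bp beyond cherub and is itself 36194 bp long. Beyond CR31386 came the member CR45055 and then pros, the gene of Prospero itself, which lay 22872 bp from CR31386 and was also in the table. Inside pros were 2 more members, CR46009 and CR46010. The lncRNA genes TS25 and CR46008 of the same stretch were not among the entries analysed. The Dam fusions bring in Prospero coding sequence, and whether that bears on the pros entry was not tested.

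The other named members lay beside or within genes with roles in development. The gene acal (FBgn0283426, arm 2R, 2336 bp), an RNA that acts in closure of the embryonic epidermis, lay 1634 bp from lola, a BTB zinc finger gene of axon growth, and lola was in the table together with the neighbouring BTB gene psq at 10628 bp. The gene sphinx (FBgn0083990, chromosome 4, 2094 bp), an RNA gene linked to male courtship, lay inside fuss, which was in the table, and 12464 bp from the listed Pax6 gene toy. Irar (FBgn0263662, arm 3R, 2503 bp) lay inside the insulin receptor gene InR, also listed. Unlike these, marge (FBgn0263380, arm 3L, 1006 bp) had a nearest protein-coding gene that was not in the table. It lies in the Bearded gene complex, 586 bp from Ocho, 3428 bp from Brd and 6320 bp from Tom, and these Bearded-family genes were not in the table. The nearest listed protein-coding gene of marge was CG3349, at 1989 bp.

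Of all lncRNA genes with a name in place of a CR number, 5 of 38 were in the table (13.2%, exact 95% interval 4.41 to 28.1), against 329 of 1908 CR-numbered genes (17.2%). Well studied lncRNA genes that were not among the entries analysed include roX1 and roX2, which coat the male X chromosome, the Hox complex RNAs bxd, iab4 and iab8, the heat shock RNA Hsromega, the microRNA precursor let7C and the piRNA cluster flam. For Hsromega the nearest protein-coding gene, aus, was in the table at 464 bp, so a listed neighbour did not always come with a listed lncRNA gene.

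A total of 26 members were listed by transcript identifiers as well, with 34 transcript entries. All other transcript entries of the table, 38 in number, were of antisense RNAs, and none was of a protein-coding gene. Of the 26 members 19 had 1 transcript entry, 6 had 2 and 1 had 3. The 3 entries were transcripts A, B and C of CR31044. The members with 2 were cherub (A and B), marge (A and B), CR30009, CR33218, CR34052 and CR43423. In 21 of the 26 the number of entries equalled the number of RefSeq transcripts of the gene, and in the other 5 it was lower, as for cherub with 2 entries and 3 RefSeq transcripts and for sphinx with 1 entry and 4. An entry names a transcript and says nothing of a peak at that transcript's start.

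The members with transcript entries were long for their class, with a median gene length of 1184 bp against 714 bp for the other 309, and 11 of 26 had 2 or more RefSeq transcripts (42.3%) against 38 of 309 (12.3%). By the CR number of today's symbol, 8 of the 12 members numbered under 42000 had such entries, none of the 4 from 42000 to 42999, 11 of 55 from 43000 to 43999, 3 of 118 from 45000 to 45999, and none of the 109 from 44000 to 44999 or the 31 from 46000 to 46999. Members with a name today, such as cherub, acal, sphinx and marge, are in no block. The median distance to the nearest protein-coding gene was 677.5 bp against 1348 bp for the other 309, and the median number of protein-coding genes within 10 kb was 3 against 2. The nearest protein-coding gene was listed for 17 of 26 (65.4%, exact 95% interval 44.3 to 82.8) and for 231 of 309 (74.8%, 69.5 to 79.5). Among them CR33218 and CR34052 both lie in Raf, the kinase gene of the Ras pathway, CR32730 lies in Cph, CR33963 in the RNA-decay gene Tis11 and CR43097 in sick. CR9162 lay 2867 bp from Kr-h1, a zinc finger gene of the juvenile hormone response. CR45322 and CR43416 lay 235 and 1249 bp from the same listed gene, CG6262. Of the remaining ones, CR43238 lay 395 bp from Npc2h, CR43424 266 bp from CG14662, CR43422 1005 bp from CG5819, CR43297 3171 bp from CG1789 and CR43304 9620 bp from CG15145, each of them listed. The nearest protein-coding genes of CR30009 (CG12911), CR43306 (CG5103), CR43372 (sp3) and CR45641 (mtSSB) were not in the table.

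Most members had a listed protein-coding gene next to them. The nearest protein-coding gene was in the table for 248 of 335 members (74.0%, exact 95% interval 69.0 to 78.6) and for 228 of the 1612 other lncRNA genes (14.1%, 12.5 to 15.9). Both names come from the same table and 1 peak can give both, so this describes the table and is not separate evidence of binding at the lncRNA gene. Counted the other way, 247 of 475 lncRNA genes whose nearest protein-coding gene was listed were themselves listed (52.0%, 47.4 to 56.6), against 87 of 1471 whose nearest one was not (5.91%, 4.76 to 7.24). The median number of protein-coding genes within 10 kb was 2 for members and for other lncRNA genes, but the median distance to the nearest protein-coding gene was 1299 bp for members and 601 bp for the others.

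A total of 75 members lay inside a protein-coding gene, and each of them overlapped at least 1 protein-coding gene that was itself listed. Of the lncRNA genes that lay inside a protein-coding gene and overlapped no listed one, none of 302 was a member. Of those that overlapped a listed one, 75 of 168 were (44.6%, exact 95% interval 37.0 to 52.5). An overlap with a listed gene therefore did not by itself put a lncRNA gene into the table. A peak over a lncRNA gene inside another gene also lies within that other gene. A rule that lists every overlapped gene would then give both names. The labels do not state the rule, so the count of none in 302 may follow from it and is no separate result. Of the 93 members that overlapped any protein-coding gene, 89 overlapped a listed one. The exceptions, named after their values were seen, were CR44886, which contains dnc and CG10793, and CR45474, CR45668 and CR45973, which overlap CG13365, CG16721 and CG13248 in part. All but CR45973, which is on 3L, are on the X chromosome. The other 242 members (72.2%) overlapped no protein-coding gene, a share close to the 70.3% of other lncRNA genes.

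The share of lncRNA genes in the table was high close to a listed protein-coding gene and low far from it. It was 47.3% of 186 that overlapped a listed gene, 57.5% of 87 within 1000 bp, 45.3% of 172 over 1000 and up to 5000 bp away and 28.8% of 118 up to 10000 bp. It was 20.6% of 175 up to 20000 bp, 6.71% of 328 up to 50000 bp and 2.96% of 878 beyond. Protein-coding genes, measured against the nearest other listed protein-coding gene, went from 39.4% where they overlapped it through 13.7% over 1000 and up to 5000 bp away to 2.47% beyond 50000 bp. In the bins from 1 to 20000 bp the exact 95% intervals of the 2 classes did not overlap, and where genes overlapped or lay beyond 20000 bp the intervals overlapped (the plot of shares by distance). Gene spacing and gene length differ between the classes, and their part in this was not tested.

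**Figure D1:**
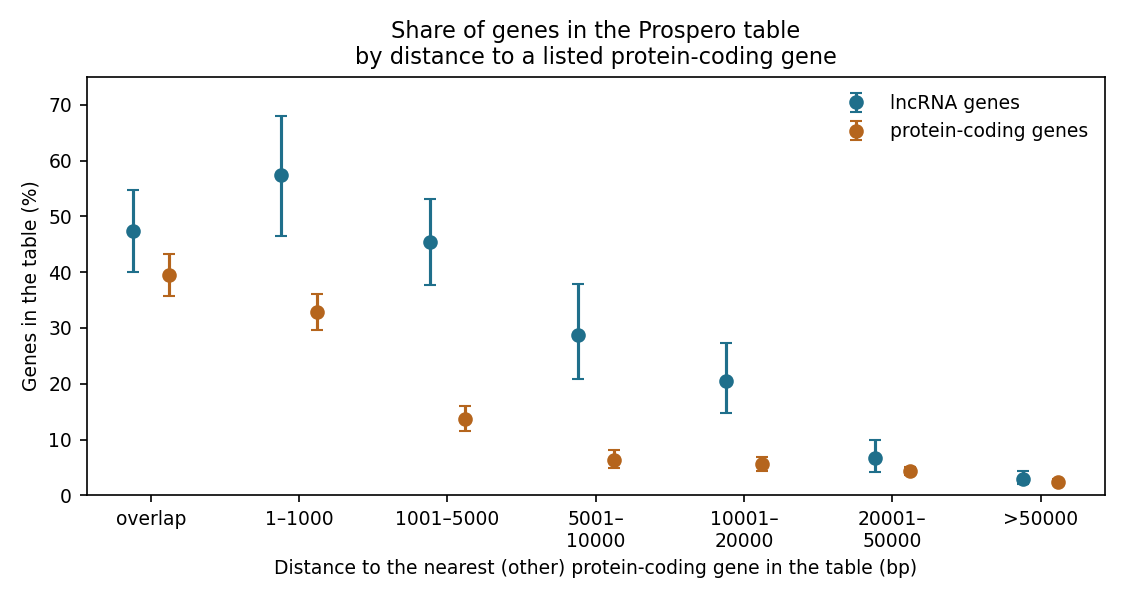
Percent of lncRNA genes (blue) and protein-coding genes (brown) that are in the table of Prospero peak genes, by distance in bp to the nearest other protein-coding gene in the table. Points are shares and bars exact 95% intervals over genes; for lncRNA genes the share is 57.5% at 1 to 1000 bp and 2.96% beyond 50000 bp.

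The genes next to the members were then read against 9 gene lists, with a lncRNA gene counted as beside a listed gene when that gene was its nearest protein-coding gene or overlapped it. Beside a gene of any of the 9 lists, 46 of 132 lncRNA genes were in the table, and beside none of them 288 of 1814 were (15.9%). Many of the list genes are themselves in the table, 20 of 27 neuroblast identity genes for instance. The nearest protein-coding gene was listed for 90 of the 132 (68.2%) and for 385 of the 1814 (21.2%). Where it was listed, 40 of 90 lncRNA genes beside list genes were members (44.4%, exact 95% interval 34.0 to 55.3) and 207 of 385 of the rest (53.8%, 48.6 to 58.8). Where it was not, 6 of 42 were members (14.3%, 5.43 to 28.5) and 81 of 1429 (5.67%, 4.53 to 6.996). These differences were not tested.

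Among neuroblast identity genes, 4 of 10 lncRNA genes beside them were members. CR44977 (FBgn0266312) lay inside brat, the translational repressor that ends self-renewal, and CR43804 (FBgn0264348) inside ham, a zinc finger gene of intermediate progenitors. CR45353 lay 7066 bp from the Snail-family gene sna and CR44924 (FBgn0266229) 7242 bp from cas, a temporal factor. The antisense RNA CR45270 overlapped grh, a transcription factor gene that neuroblasts keep on late in development, and counts in addition to these 4. The 5 protein-coding genes were all in the table.

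Among temporal patterning genes, which give neuroblasts an identity that changes with age, 7 of 22 lncRNA genes beside them were members. The members CR44039, CR46013 and CR46014 all lay inside svp, the nuclear receptor gene that ends early identities, and were the lncRNA genes to which svp was nearest. CR45624 (FBgn0267184) overlapped in part Imp, the RNA-binding protein gene of early neuroblasts. The member beside cas counts here too. CR45576 lay 17345 bp from hth, and CR44983 lay 5945 bp from slp2, which was not in the table.

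Of 13 lncRNA genes beside Notch pathway and Enhancer of split genes, 6 were members, and 4 of these lie in the Enhancer of split complex itself. CR45037 (FBgn0266397) lay 440 bp from E(spl)mgamma-HLH, CR45038 and CR45039 lay 365 and 479 bp on either side of E(spl)mbeta-HLH, and CR43643 lay 557 bp from E(spl)m2-BFM. These neighbours encode the repressors and Bearded-family proteins that Notch turns on. One more member of the complex, CR45040, lay inside Kaz-m1. The next lncRNA gene along, CR43644, was not in the table, and neither were the genes after it, E(spl)m3-HLH and its neighbour E(spl)m4-BFM (the maps of 3 loci). Further along, the genes from E(spl)m5-HLH through the co-repressor gene gro were listed, with no lncRNA gene among them. Outside the complex CR45243 lay 847 bp from fng, the glycosyltransferase gene that modifies the Notch receptor, and the remaining one is marge beside Ocho.

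**Figure D2:**
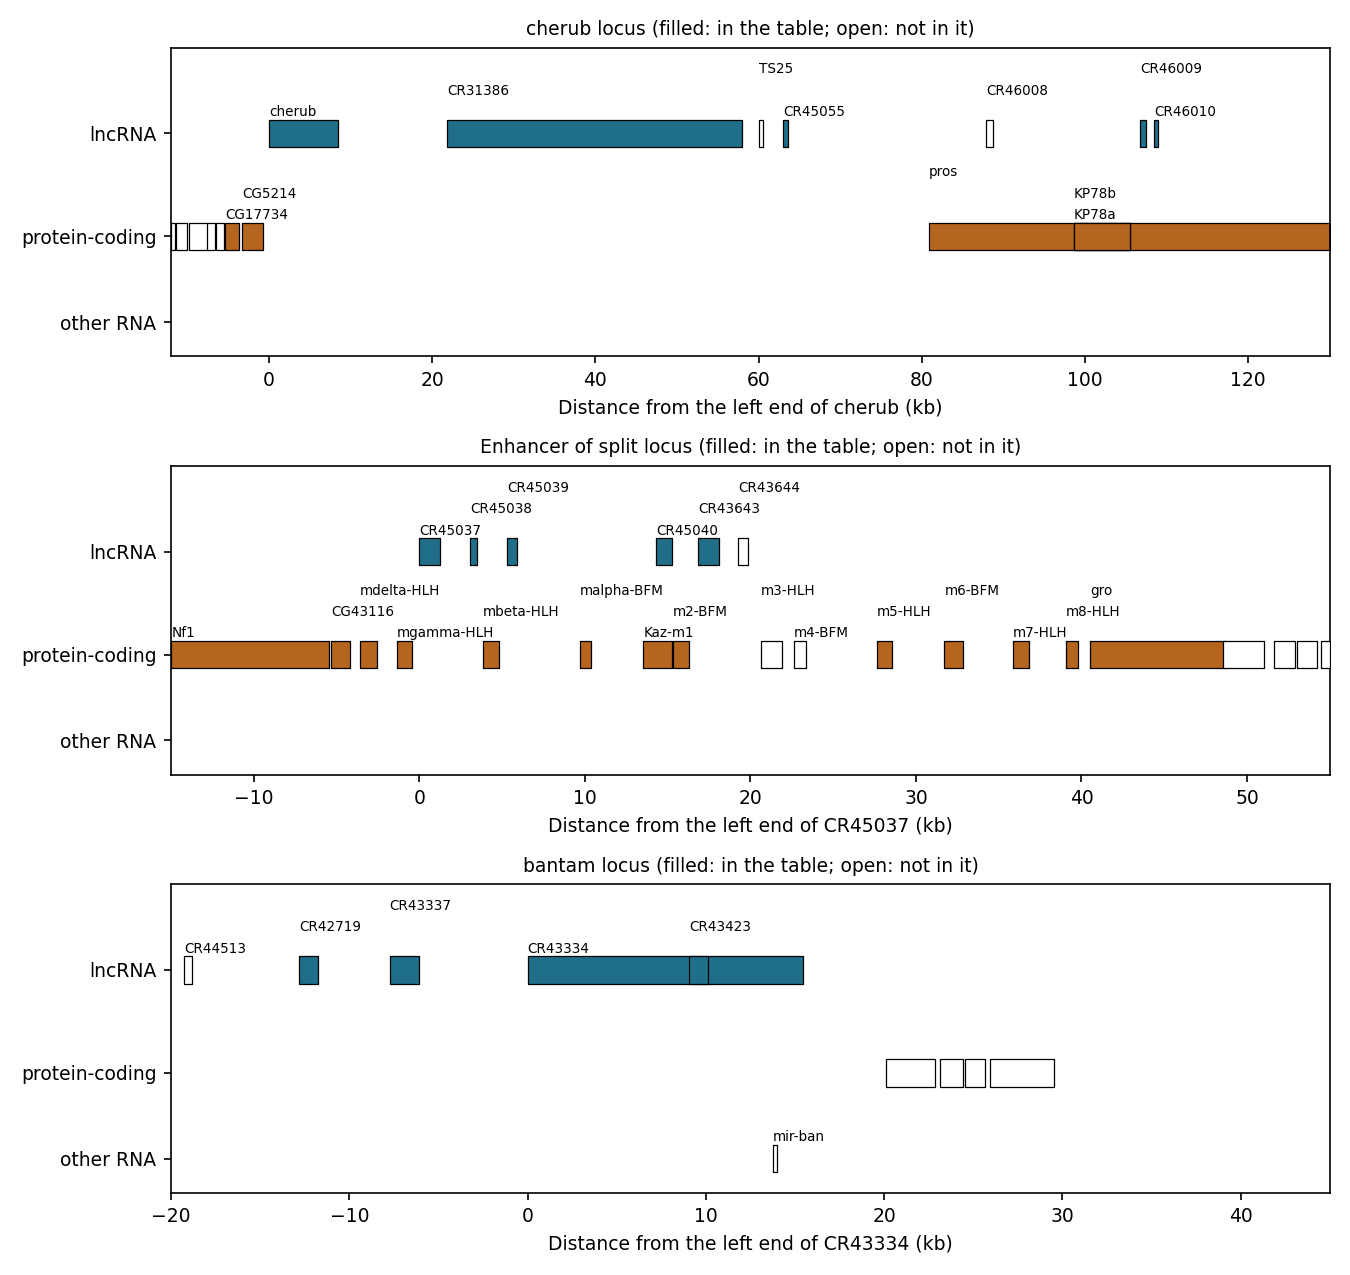
Genes around cherub, the Enhancer of split complex and bantam, drawn to scale against distance in kb from the left end of cherub, CR45037 and CR43334, with filled boxes for genes in the table and open boxes for genes not in it. The left part of pros is shown (its end lies beyond the panel), and E(spl) is left out of gene names in the middle panel. The bantam panel shows 4 listed lncRNA genes, among them CR43337, which is no member, and open boxes for the protein-coding genes. The box of mir-ban is open because the entry named ban was not matched to it.

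For cell cycle genes the 3 lncRNA genes beside them were all members: CR44974 inside CycE, the cyclin of S phase entry, and CR46056 and CR46057 inside E2f1, its transcriptional activator. Both CycE and E2f1 were in the table, and with a listed nearest protein-coding gene 52.0% of all lncRNA genes were members. The 2 in E2f1 lie within 10 kb of each other, so 1 peak can give both. Beside axon guidance and cell surface genes 12 of 44 were members. They include CR44898, which overlaps in part the Slit receptor gene robo2, CR44373 inside sli, the gene of the ligand, and CR44764, 629 bp from robo1, which was not in the table. Others lay inside the teneurin genes, CR43960 and CR43961 in Ten-a and CR45962 in Ten-m, and CR44189 lay 8786 bp from drl, a Wnt receptor gene. Beside genes of neuronal identity and differentiation 9 of 19 were members, among them the 3 at pros, CR43724 and CR45267 at 1348 and 4688 bp from the homeobox gene Optix, and CR45597 at 164 bp from the synaptic release gene cpx. CR44737 lay 12350 bp from the LIM homeobox gene tup, which was not in the table.

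Near Hox genes 3 of 15 lncRNA genes were members, CR45899 at 1264 bp from Antp, which was listed, and CR42651 and CR45915 at 6368 and 8391 bp from Dfd, which was not. The single lncRNA gene beside a glial gene, CR43621 (FBgn0263612), was a member and lay 2925 bp from gcm, the switch gene of glial fate. Beside genes of muscle, fat body and gut, taken as the list of other tissues, 3 of 7 were members. These were CR44510, CR44511 and CR43150, which lay 143, 1509 and 1856 bp from Lsp1gamma, a larval serum protein gene of the fat body that was itself in the table (the plot of lncRNA genes by gene list).

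**Figure D3:**
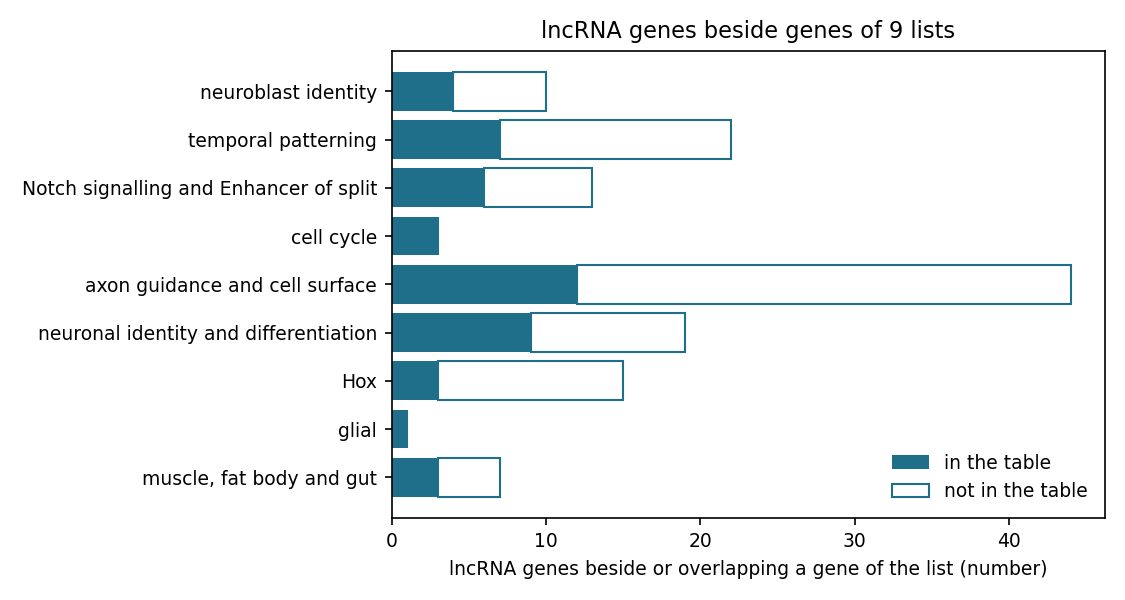
Number of lncRNA genes whose nearest or an overlapping protein-coding gene belongs to each of 9 gene lists, split into those in the table (filled) and not in it (open). Axon guidance and cell surface genes have the most, 12 in the table of 44, and the glial list has 1.

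Members often stood next to one another. Within 10 kb of each other they formed 240 runs, of which 178 were single genes, 39 were pairs, 16 had 3 members and 7 had more. Another member lay within 10 kb of 157 of 335 members (46.9%) and of 84 of 1612 other lncRNA genes (5.21%). The longest run had 6 members on arm 2L (CR45358, CR45698, CR45111, CR45112, CR44411 and CR44410), and Oli, a bHLH gene of motor neurons, was the nearest protein-coding gene of all 6, with CR44410 inside it. The next was the run of 5 in the Enhancer of split complex. On arm 3L, 4 members (CR45096, CR45097, CR43914 and CR45098) lay 9828 to 19734 bp from caps, a leucine-rich repeat adhesion gene, and another run of 4 took in the Lsp1gamma neighbours and CR43988 beside CG13405. On the X chromosome CR43132, CR45523, CR45524 and CR45526 formed a run of 4 in which no nearest protein-coding gene (CG15599 or CG8128) was listed. In each of these 5 runs, every lncRNA gene lying between the ends of the run was in the table. There were 5 runs of 4 members in all, so the choice among them cut a tie. Those left out, at CG3942 and svp on 3R and at Atet and CG15429 on 2L, had listed nearest protein-coding genes for all 4 members.

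When listed genes of all kinds were joined over gaps of up to 10 kb, the 335 members fell into 220 groups. Of these, 172 groups held a protein-coding gene too, with 263 of the members. The other 48 groups, with 72 members, held no protein-coding gene, and 29 of them were a single lncRNA gene with nothing else listed within 10 kb.

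Those 29 lone members had a median length of 991 bp, and 28 overlapped no protein-coding gene. For 14 of them there was no protein-coding gene of any kind within 10 kb. Their nearest listed protein-coding gene lay a median of 24759 bp away. The most distant member of all was CR44928 (FBgn0266233) on 3R, with Rm62 as its nearest gene and cas, the nearest listed one, 277986 bp off. It was followed by CR45387 and CR45388 on 3L, 149119 and 142378 bp from nkd, a feedback inhibitor gene of Wnt signalling. Next came CR45335 on 2L at 134336 bp from CG11629 and CR44627 on 2R at 118291 bp from Obp56h. Of these, CR45387, CR45388 and CR44627 each had another member within 10 kb and are not among the lone members. Of the members with transcript entries, CR45416 was among the 29 lone members, 59255 bp from the listed gene tow.

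Several members overlap microRNA genes. A microRNA is a short RNA that silences messenger RNAs and is cut from a longer precursor. Strand was not compared, so an overlap does not say that the lncRNA is that precursor. Of 37 lncRNA genes that overlap a microRNA gene, 11 were members (29.7%, exact 95% interval 15.9 to 47.0), and these cover 14 microRNA genes. The share over all 1946 lncRNA genes, 17.2%, lies inside this interval. Many of the 37 lncRNA genes are long, and in the longest decile of length 27.2% of lncRNA genes were members. The part of length was not tested. Of those 14 microRNA genes 7 were listed by themselves, and of the 37 that overlap only lncRNA genes outside the table none was. The 7 were mir-279, mir-10, mir-14, mir-1000 and the cluster of mir-13a, mir-13b-1 and mir-2c. Of all 260 annotated microRNA genes 18 were listed (6.92%), and most of these 18 overlapped no member. The same peak can give both the lncRNA and the microRNA name, and the difference between the 14 and the 37 was not tested.

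The member CR43334 (FBgn0286827, 15466 bp) overlaps mir-ban, the bantam gene, which promotes growth and blocks cell death. A second member, CR43423, lies inside its span, and both had transcript entries. The nearest listed protein-coding gene of CR43334 was CG17129, at 33979 bp. The table holds an entry named ban under a symbol of Drosophila pseudoobscura, which was not matched to mir-ban. In the counts and the map mir-ban therefore stands as not listed, and whether that entry means mir-ban was not settled. CR31044 (FBgn0051044, 5106 bp) overlaps mir-279 and mir-996, microRNAs of sensory neuron fate, and also lay apart from listed protein-coding genes, with the unlisted eEF1gamma at 505 bp and stg, the phosphatase gene that drives entry into mitosis, at 32159 bp.

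CR46004 and CR46006 overlap mir-276b and mir-276a and lay 32054 and 45368 bp from Or67d and CG12362, which were listed. CR44206 overlaps mir-184 and lay 94506 bp from the listed gene cnn. CR45388 overlaps mir-315, CR43651 mir-14 and CR43857 mir-275. CR42651 overlaps mir-10, in the Hox complex. CR45910 with mir-1000 lies inside msi, an RNA-binding protein gene, and CR45911 with the mir-13 cluster lies 43 bp from Atx2, and both of these protein-coding genes were listed. The lncRNA genes that overlap mir-1, mir-8, mir-9a, mir-124 and mir-let7 were not in the table.

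Members were slightly longer than other lncRNA genes. The median length was 732 bp (quartiles 489 and 1368, range 201 to 239347) against 651 bp (quartiles 450 and 1042), a ratio of 1.12. The share in the table was between 12.4% and 19.1% in the first 9 deciles of length and 27.2% of the 195 genes in the longest decile, from 2215 bp up (exact 95% interval 21.1 to 34.0). A long gene can take in or lie near more peaks, and the part of length in the listing was not tested. Genes over 10000 bp were 17 of 335 members (5.07%) and 33 of 1612 others (2.05%).

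**Figure D4:**
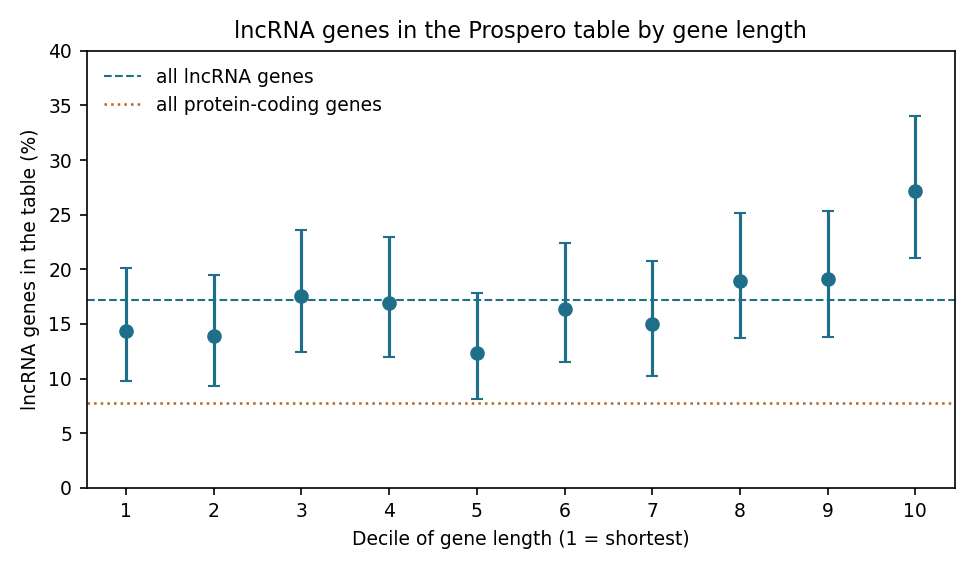
Percent of lncRNA genes in the table by decile of gene length, with exact 95% intervals over genes. The dashed line is the share of all lncRNA genes (17.2%) and the dotted line that of all protein-coding genes (7.77%); the longest decile stands at 27.2%.

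The longest members were CR44357 (239347 bp), CR32773 (223710 bp), CR44999 (149629 bp), CR44833 (107223 bp) and CR43960 (72344 bp), all on the X chromosome. The first 4 of these contain protein-coding genes. CR43960 lies inside Ten-a and overlaps 8 protein-coding genes, Ten-a included, of which 1 was listed. CR44357 overlaps 16, of which 2 were in the table, and CR44999 overlaps 14, of which 2 were. CR32773 overlaps 12, with 1 listed, and CR44833 overlaps ovo, CG15468 and CG12680, with 1 listed. For genes of this size a peak inside the span can belong to any of them. The next in length were CR45962 in Ten-m (59380 bp), CR46006 (43950 bp), CR31386 (36194 bp), CR44886 (35068 bp) and CR46003 (21024 bp).

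Members were spread over the arms. The share of lncRNA genes in the table was 14.3% on 2L (75 of 524, exact 95% interval 11.4 to 17.6), 17.6% on 2R (52 of 295), 19.3% on 3L (86 of 445, 15.8 to 23.3), 18.8% on 3R (80 of 426) and 15.4% on X (37 of 240). On chromosome 4, which is rich in heterochromatin, it was 4 of 14, and on Y 0 of 2. The intervals of 2L, 2R, 3L, 3R and X overlap. By block of CR numbers in today's symbols the share ran from 14.3% of 28 genes numbered 42000 to 42999 (exact 95% interval 4.03 to 32.7) to 21.1% of 57 numbered under 42000 (11.4 to 33.9), and the intervals of all 6 blocks overlap.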

How the data were processed

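The authors deposited 1 table with 3 text columns (gene name, FlyBase identifier and symbol), per the file headers, and it holds no numeric column, so no count, height or signal was used. The labels name no aligner, peak caller, threshold or rule that assigns peaks to genes, and such a rule sets how many neighbours are listed for 1 peak. Of 1512 gene entries 1507 were matched to RefSeq Release 6, by current symbol, then older symbol. In 1 row the authors' name and the symbol are current symbols of different genes of the reference, and the name was used. The entry named ban, whose symbol is of another Drosophila species, falls outside this rule and was not matched to mir-ban.

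Distance is the gap between gene spans, and strand was not used. The nearest protein-coding gene is the one with the smallest gap, or the largest overlap where several overlap. Intervals are exact Clopper-Pearson 95% intervals. No test was run, since the list has no replicate values and the same table chose the members. The members, gene lists and the naming rule were chosen with earlier results of these data known. The rule took all named members, those with transcript entries, up to 8 per gene list, the 10 longest, the 5 farthest from a listed protein-coding gene and the 5 longest runs; other names were chosen after their values were seen. The nearest gene, its distance and its listing were tested on simulated data, where all 300 toy genes were recovered. Each toy gene had 1 protein-coding gene near it. Several overlapping genes, counts within 10 kb, runs and name matching were not tested in this way. Python 3.11.15, numpy 2.4.6, pandas 2.3.3, scipy 1.17.1 and matplotlib 3.10.9 were used.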

Additional observations from a re-analysis of the deposited data

How the results depend on the processing

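The number of lncRNA genes in the table was 336 by symbol, 335 by the reference's own class, 331 by current symbol and 240 with 1 gene per run. With the entry CG43337 the members would be 335 of 1946 lncRNA symbols, a share that also rounds to 17.2% (added after seeing the data). The share of annotated genes was 16.8% by the reference's class, 18.1% with 1 gene per run, and 16.5% to 18.2% without each arm in turn. Members whose nearest protein-coding gene was listed were 74.0%, and 72.9% to 75.8% without each arm. This share was 86.3% with any flanking or overlapping gene and 65.7% among members that overlap none. Members with a listed protein-coding gene within 10 kb were 74.9%, with 64.8% within 5 kb, 85.7% within 20 kb and 26.6% by overlap, which the wider or narrower distance sets by construction. The length ratio was 1.08 to 1.21 without each arm. GATC sites and Prospero motifs at gene starts were planned and not run, as no sequence was used here. No paired analysis was possible because the list carries no replicates. Depth is unknown.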

Other observations

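A total of 253 protein-coding genes were the nearest gene of at least 1 member, and 189 of them were in the table. Of 14 that were the nearest of 3 or more members, 11 were listed. These included Oli (6 of its 6 nearest lncRNA genes were members), svp and Lsp1gamma (3 of 3 each), caps (4 of 8) and pros (3 of 5). The others were CG4328 (4 of 4), jing and CG44388 (3 of 3 each), kis and CG12362 (3 of 4 each) and Or67c (3 of 5). The gene jing encodes a zinc finger protein of glia and trachea, and kis a chromatin remodeller. The 3 that were not in the table were the large Maf factor gene tj, with 3 of 3 of its nearest lncRNA genes listed, CG6168 with 3 of 4 and CG15425 with 3 of 5. These genes were picked after the counts were seen.

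The entry CG43337, which the reference now calls the lncRNA gene CR43337, lies 6119 bp from CR43334 at bantam.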
